A study of Caenorhabditis elegans with 36 samples.

Results

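The 7 genes described here encode nicotinic acetylcholine receptor subunits of Caenorhabditis elegans body wall muscle and a protein that clusters them: unc-29, unc-38, unc-63, lev-1 and lev-8, which are subunits of the levamisole-sensitive receptor, acr-16, the subunit of the nicotine-sensitive receptor, and lev-10, a transmembrane protein that gathers levamisole receptors at the synapse. They were chosen by gene symbol in the array annotation. Of the 7, 5 carried a named probe, 1 probe each, and lev-10 and acr-16 were not analysed here. Both values needed for the comparison were present in enough lysates for 4 of the 7 (unc-29, unc-38, lev-1 and lev-8), among 15732 genes and probes tested in all, 12061 of them named genes.

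The samples were AIN-2::GFP immunoprecipitates (IPs) and the total RNA of the same whole-animal lysates (inputs), from a strain that carries AIN-2::GFP as an integrated single-copy transgene. The tag was therefore present in the inputs as well as in the IPs. There were 18 independently cultured lysates: eggs (4 lysates), L1 larvae after 4 hours on food (4), L2 after 21 hours (3), L3 after 30 hours (4) and L4 after 42 hours (3), all kept at 20 °C, and stage was checked by microscopy with over 80% of animals at the right stage. The promoter of the transgene is not given in the sources used here, and a control IP lacking the tag was not analysed here. RNA held through AIN-2 and RNA held on the beads in other ways cannot be told apart.

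AIN-2 belongs to the GW182 proteins, which join the microRNA-induced silencing complex. In that complex, Argonaute proteins loaded with microRNAs bind target mRNAs, mostly in their 3' untranslated regions, and repress them. The levamisole receptor is a pentamer of different subunits that opens when motor neurons release acetylcholine and makes the body wall muscle contract. In C. elegans the muscle microRNA miR-1 is known to act on unc-29, unc-63 and the muscle transcription factor gene mef-2, and so to tune the response of muscle to acetylcholine.

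Spots above background made up 31% to 70.4% of each IP array and 51.3% to 71.4% of each input array, with background taken as 3 times the noise of the array column. Levels below are quantile-normalized log2 intensities, which do not compare 1 gene's level with another's, and a difference is IP minus input within a lysate on the log2 scale. The larval stage labels could be set against a list of sperm genes, which are transcribed from L4 on. In the input, the 14 measured sperm genes averaged 0.74 at L4 and -3.11 at L3, and 6 of the 14 were called higher at L4, where 0.839% of all genes and probes were. One L3 input went against the rest: the sperm genes averaged -0.84 in L3 replicate 2, close to the lowest L4 input at -0.47, and the other 3 L3 inputs averaged -3.87. The IP of L3 replicate 2 did not share this: in the 4 L3 IPs the sperm genes averaged between -3.97 and -3.32. The L4 IPs averaged -0.31. Why the IP and input of L3 replicate 2 differed in this way was not tested. Without that lysate the IP minus input differences at L3 given below were 3.96 for lev-1, 3.68 for unc-38, 1.18 for unc-29 and -0.24 for lev-8, and no call at L3 changed. Of 9 measured embryonic genes, 4 were called lower in larval than in egg inputs and 1 higher, where 13.3% of all genes and probes were called lower and 13.7% higher. Of 36 body wall muscle genes listed, 26 had a probe, and all 26 could be tested.

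Comparing the IP with the input asks which of these mRNAs were over-represented in material held with the silencing complex. All 4 tested members were called higher in the IP over the mean of the 5 stages, by limma with a Benjamini-Hochberg adjusted p under 0.05, where 19.2% of all genes and probes were called higher and 25.1% lower. The 4 fell in a wide range, with lev-1 and unc-38 more than 8-fold above the input and unc-29 and lev-8 within 3-fold of it. Among 12061 named genes lev-1 ranked 11th and unc-38 26th by the mean difference, against 1127th for unc-29 and 2049th for lev-8. Over all genes and probes the median difference was -0.09.

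**Figure D1:**
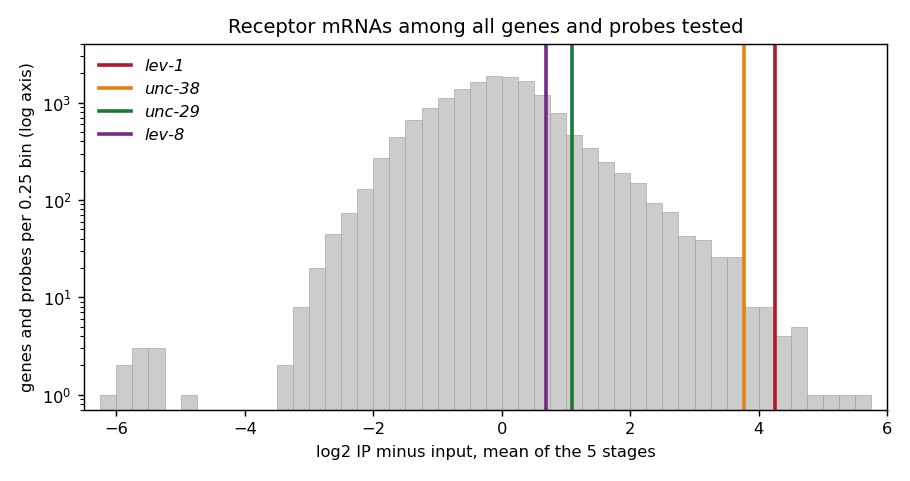
Histogram of the mean log2 IP minus input of all genes and probes tested (x axis, log2; y axis, number of genes and probes), with the 4 tested receptor genes marked. The bulk lies around the median of -0.09, while lev-1 at 4.25 and unc-38 at 3.76 stand in the far right tail and unc-29 at 1.10 and lev-8 at 0.69 lie on the right shoulder.

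lev-1 encodes a non-alpha subunit of the levamisole receptor. Its level in the 18 IPs had a lowest value of -0.15, a median of 1.54 and a highest of 2.58, against a lowest of -4.05, a median of -2.81 and a highest of -1.60 in the 18 inputs. The groups did not overlap: the dimmest IP, that of Egg replicate 4, was above the brightest input, that of L2 replicate 2. Every IP value above every input value was seen for 0.547% of the genes and probes tested (86), and among the members for lev-1 and unc-38. The mean difference of lev-1 was 4.25 ± 0.136 (SE, 19-fold, limma adjusted p = 5.14e-15), above 0 in 18 of 18 lysates. An IP above its input in every lysate was seen for 4.6% of genes and probes.

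In the deposited linear units, in which each array column averages close to 1, lev-1 ran between 0.728 and 6.68 in the IPs, and between 0.0442 and 0.309 in the inputs. Within an array, the lev-1 spot stood at a median percentile of 93.1 in the IPs and of 64.8 in the inputs, a measure that needs no scaling between arrays. The gene was above background in 36 of 36 samples.

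unc-38 encodes an alpha subunit of the same receptor. Its level had a lowest value of 0.73, a median of 1.77 and a highest of 2.51 in the IPs, against -2.99, -2.16 and -0.98 in the inputs. As with lev-1, no IP reached down to the inputs, whose brightest was L1 replicate 5. The mean difference was 3.76 ± 0.149 (13.6-fold, limma adjusted p = 1.07e-13, above 0 in 18 of 18 lysates), and the spot stood at a median percentile of 93.9 in the IPs and of 70.3 in the inputs. unc-38 was also above background in 36 of 36 samples.

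unc-29, the non-alpha subunit that is a known miR-1 target, was dimmer. Its level had a lowest value of -5.40, a median of -2.29 and a highest of -0.87 in 17 IPs, against -6.95, -3.55 and -2.37 in 18 inputs. The deposited IP value of Egg replicate 1 was -0.00386 and is treated as missing, so that lysate did not enter the fit of the unc-29 difference. Its input was above background, at 0.201 deposited. The spot stood at percentile 12.9 in that IP and 64.1 in that input, so the IP was the lower of the pair. The groups overlapped, although the IP was above the input in 16 of the 17 lysates with both values. Among these 17 the exception was L3 replicate 1, where the IP was -3.73 and the input -3.34, and that IP was not above background. unc-29 was above background in 14 of 18 IPs and 17 of 18 inputs.

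The mean difference of unc-29 was 1.10 ± 0.219 (2.14-fold, limma adjusted p = 0.000394). It shrank to 0.57 (adjusted p = 0.000647) with an offset, where values below 0 were set to 0 and 0.1 was added before the log. The offset damps dim spots and also brings Egg replicate 1 back into the fit. The egg difference was then 0.066 (limma adjusted p = 0.912), against 0.90 without the offset. Which of these shrank the value was not tested. The median difference was 1.37 in the 6 lysates whose IP carried Cy5 and 0.87 in the 11 with Cy3. It was 1.65 in the 6 lysates whose input title is spelled with a capital letter and 0.45 in the 11 others, a label whose meaning is not given in the sources used here. The spelling was not balanced over the stages. L1 replicates 5, 10 and 11 were among the 6, and L1 replicate 2 was the only L1 lysate of the 11. The medians by spelling therefore mix the label with stage. The dyes were not balanced over the stages either. L1 replicates 2 and 11 were among the 6 lysates with Cy5, and L1 replicates 5 and 10 among the 11 with Cy3. The medians by dye therefore mix dye with stage as well. The part of array noise in these values was not tested.

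lev-8 encodes an alpha subunit that is needed for full levamisole sensitivity. Its level had a lowest value of -5.96, a median of -1.77 and a highest of -1.09 in the IPs, against -4.13, -2.76 and -1.29 in the inputs. The IP was above the input in 16 of 18 lysates. The 2 exceptions were Egg replicate 4, with -2.30 in the IP and -1.29 in the input, and L3 replicate 1, with -5.96 in the IP and -3.06 in the input. The lev-8 spot of the L3 replicate 1 IP was not above background: its deposited value was 0.0992 where the array needed 0.341, against 0.0730 in the input of that lysate, where 0.0165 was enough.

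The mean difference of lev-8 was 0.69 ± 0.263 (1.61-fold, limma adjusted p = 0.0389), the smallest of the 4 and the least stable call. It was lost under 17 of 28 alternatives, 13 of which left out a single lysate, with adjusted p between 0.000546 and 0.108 over all of them. Without L3 replicate 1 the difference was 0.84 (adjusted p = 0.000546). With only spots above background it was 0.40 (adjusted p = 0.0814).

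unc-63 encodes an alpha subunit of the levamisole receptor and is the other subunit named as a miR-1 target. Its probe was at the level of the background: it was above background in 4 of 36 samples, 2 IPs and 2 inputs, and had both values in 12 of 18 lysates. The deposited values lay between -0.163 and 0.131 in the IPs and between -0.00435 and 0.0396 in the inputs. No fold or test is given for it, and its IP to input ratio was not measurable on these arrays.

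**Figure D2:**
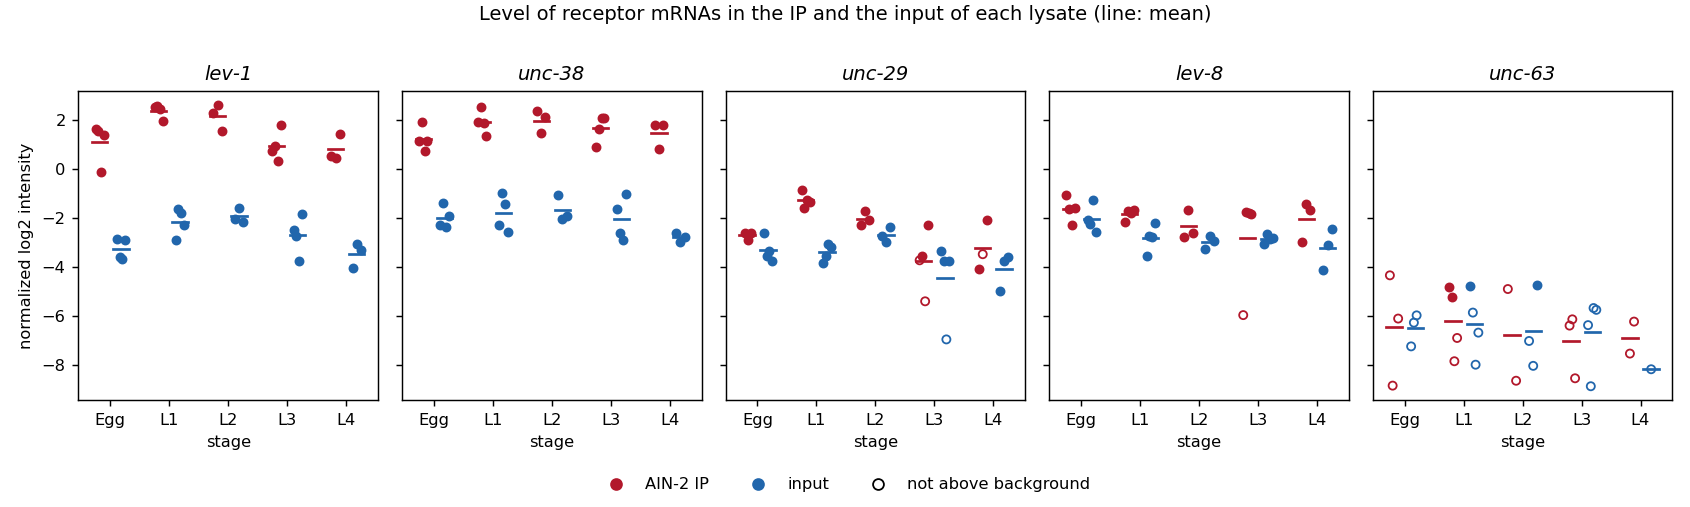
Normalized log2 level of each measured member in every IP and every input (y axis, log2 intensity; x axis, stage, IP left of input), 1 point per sample with a bar at the group mean. For lev-1 and unc-38 the IPs (-0.15 and above for lev-1, 0.73 and above for unc-38) sit clear of all inputs, while the 2 groups overlap for unc-29 and lev-8, and unc-63 lies near the background.

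The order of the mean differences was lev-1, unc-38, unc-29, lev-8. Neighbours in that order were compared within lysates with an exact two-sided sign-flip permutation test, adjusted over the 3 pairs. The order was read from the same differences that are tested, so these p-values describe the gaps and are no independent evidence of the order. lev-1 exceeded unc-38 by 0.48 (SD 0.691, n = 18, adjusted p = 0.0139 by that exact test), in 14 of 18 lysates, a gap smaller than its own SD. unc-38 exceeded unc-29 by 2.60 (SD 0.865, n = 17, exact adjusted p = 4.58e-05), in 17 of 17 lysates, and the unadjusted p of 1.53e-05 is the smallest this test can give. unc-29 exceeded lev-8 by 0.50 (SD 0.919, n = 17, exact adjusted p = 0.0390), in 12 of 17 lysates, again within the SD. Only the step between unc-38 and unc-29 was larger than the spread over lysates. With the offset of 0.1 the first and the last of the 3 steps were 0.25 (exact adjusted p = 0.171) and 0.05 (exact adjusted p = 0.807). The offset also brought Egg replicate 1 into the steps that hold unc-29.

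The next comparison took the stages one at a time. lev-1 and unc-38 were called higher in the IP at each of the 5 stages, as 3.04% of all genes and probes were. By stage, calls higher in the IP made up 10.4% (eggs), 13.1% (L1), 6.26% (L2), 8.99% (L3) and 8.21% (L4) of genes and probes. The difference of lev-1 was 4.47 (eggs), 4.50 (L1), 4.15 (L2), 3.78 (L3) and 4.35 (L4), with limma adjusted p between 6.35e-10 and 3.02e-08. That of unc-38 was 3.30 (eggs), 3.73 (L1), 3.69 (L2), 3.80 (L3) and 4.29 (L4), with limma adjusted p between 2.19e-08 and 4.52e-07. Both kept these calls under all 28 alternatives.

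unc-29 was called higher at L1 alone of the 5 stages. The 4 L1 IPs stood at -0.87, -1.60, -1.28 and -1.36, against -3.82, -3.55, -3.06 and -3.19 in their inputs. The L1 IPs were the 4 brightest unc-29 IPs of the series, and the 2 groups did not overlap at that stage, as for 15.6% of genes and probes. The other tested members did not overlap at L1 either, lev-8 narrowly, with a lowest IP of -2.18 and a highest input of -2.22. At L2 the unc-29 IPs also lay above all inputs, narrowly, with a lowest IP of -2.29 and a highest input of -2.37, as for 12.8% of genes and probes. The difference of unc-29 at L1 was 2.13 (limma adjusted p = 0.000866), and it was called under all 27 alternatives, between 1.30 and 2.30. At the other stages it was 0.90 in eggs, 0.71 at L2, 0.80 at L3 and 0.94 at L4, with limma adjusted p between 0.208 and 0.369. The egg value leaves out Egg replicate 1, whose deposited IP was below 0 and below its input.

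That L1 value was not shown to differ from its neighbours. L1 minus Egg was 1.23 ± 0.649 (limma adjusted p = 0.434), where 2.39% of genes and probes were called, and L2 minus L1 was -1.41 ± 0.649 (limma adjusted p = 0.619, unadjusted p = 0.0427), where 0.089% were called. For lev-8 no stage was called on its own: the differences were 0.46 (eggs), 0.98 (L1), 0.68 (L2), 0.09 (L3) and 1.24 (L4), with limma adjusted p between 0.174 and 0.934. The L3 value rests on the spot of replicate 1 that was not above background: without that lysate it was 1.00 (adjusted p = 0.0898), and L1 (adjusted p = 0.0394) and L4 (adjusted p = 0.0350) became calls in limma.

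**Figure D3:**
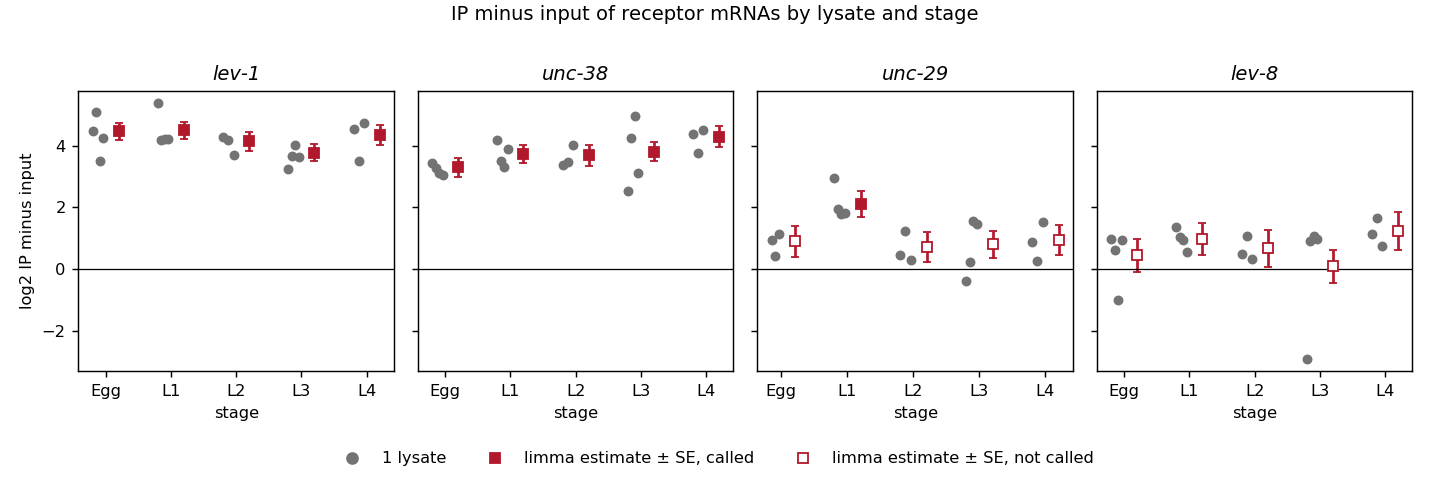
Log2 IP minus input of lev-1, unc-38, unc-29 and lev-8 in every lysate (y axis, log2; x axis, stage in order of development), 1 point per lysate. Squares give the limma estimate of each stage with its SE, filled where called and open where not. lev-1 lies between 3.24 and 5.37 and unc-38 between 2.55 and 4.96 at all stages, unc-29 is highest at L1, and 1 lev-8 lysate at L3 lies at -2.90.

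Whether the IP to input ratio changed over development was tested across all stages at once. An F test in limma called 0 of the 4 members, where 2.68% of genes and probes were called, with adjusted p of 0.639 for lev-1, 0.633 for unc-38, 0.517 for unc-29 and 0.801 for lev-8. No member had an unadjusted p under 0.05 in that test. The mean of the 4 larval stages minus eggs was -0.27 ± 0.306 for lev-1 and 0.57 ± 0.336 for unc-38. It was 0.25 ± 0.532 for unc-29 and 0.29 ± 0.593 for lev-8. By limma the adjusted p of these 4 lay between 0.40 and 0.867, where 5.15% of genes and probes were called. With 3 or 4 lysates a stage, standard errors of 0.306 to 0.593 leave room for changes of the ratio that could not be seen here.

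The inputs give the level of the same mRNAs in whole animals, where fewer muscle cells and less of an mRNA in each cell cannot be told apart. lev-1 averaged -3.25 ± 0.43 (eggs, n = 4), -2.15 ± 0.56 (L1, n = 4), -1.94 ± 0.29 (L2, n = 3), -2.71 ± 0.79 (L3, n = 4) and -3.48 ± 0.51 (L4, n = 3), with the SD. L1 and L2 were the brightest stages, and eggs and L4 the dimmest. The F test over the inputs left lev-1 at an adjusted p of 0.0699 (limma, unadjusted p = 0.0198), and L1 minus Egg was 1.14 ± 0.451 (limma adjusted p = 0.0788, unadjusted p = 0.0209), where 11.1% of genes and probes were called higher. That F test called 0 of the 4 members, where 25% of genes and probes were called, and 1 of the 4 had an unadjusted p under 0.05.

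lev-8 was the member that differed between larval and egg inputs. In the 14 larval inputs it lay between -4.13 and -2.22, against -2.08, -2.24, -1.29 and -2.56 in the 4 egg inputs. The egg inputs were the higher group, with an overlap at L1 and L4. The larval mean minus eggs was -0.95 ± 0.342 (limma adjusted p = 0.0476), and 13.3% of genes and probes were called lower in that comparison. The call was lost under 15 of 27 alternatives, 13 of them leaving out a single lysate, and without Egg replicate 4, its brightest input, the difference was -0.68 (adjusted p = 0.164). The same contrast gave 0.70 ± 0.358 for lev-1, -0.36 ± 0.523 for unc-29 and -0.05 ± 0.360 for unc-38 (limma adjusted p between 0.167 and 0.937). Of the 26 body wall muscle genes, 10 were called higher and 4 lower in larval inputs (13.7% and 13.3% of all genes and probes), with a median of 0.12.

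The IPs came from the same lysates as these inputs. In them lev-1 averaged 1.09 ± 0.83 (eggs), 2.35 ± 0.28 (L1), 2.12 ± 0.53 (L2), 0.94 ± 0.63 (L3) and 0.79 ± 0.56 (L4), with the SD and the same n, so L1 and L2 were again the brightest stages. The F test over the IPs gave a limma adjusted p of 0.0572 for lev-1 (unadjusted p = 0.00632) and of 0.107 for unc-29 (unadjusted p = 0.0168), so it called 0 of the 4, where 10.3% of genes and probes were called. unc-38 had an adjusted p of 0.558 and lev-8 of 0.762 in that limma test. Larvae against eggs called 0 of the 4 IP levels as well, where 11.8% of genes and probes were called, and 0 had an unadjusted p under 0.05.

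The remaining results place the members beside other genes of the neuromuscular junction. Of 24 other nicotinic subunit genes listed, 22 had a probe and 16 were tested. In the IP 1 was called higher and 1 lower (19.2% and 25.1% of all genes and probes), and the median of the 16 was -0.02. The gene called higher was acr-8, a subunit closely related to lev-8 that can take its place in the levamisole receptor. Its level had a lowest value of -2.89, a median of 0.33 and a highest of 1.48 in the IPs, against -4.47, -2.78 and -1.70 in the inputs. The mean difference of acr-8 was 3.07 ± 0.190 (limma adjusted p = 5.86e-11), above 0 in 18 of 18 lysates. The gene called lower was acr-23, a betaine receptor subunit, at -0.98 ± 0.113 (limma adjusted p = 4.70e-07). The higher count stayed at 1 under 25 of 28 alternatives and the lower count under 26 of 28. Among the exceptions, the higher count was 4 with the values as deposited and 2 without L2 replicate 1. The lower count was 2 without L2 replicate 2, among others.

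Genes that assemble, cluster or accompany the receptors came next. Of 14 listed, 9 were tested, with a median of 0.97. Of the 9, 5 were called higher and 1 lower (19.2% and 25.1% of all genes and probes). emc-6, part of the endoplasmic reticulum membrane complex that helps receptors form, stood at 1.84 ± 0.130 (limma adjusted p = 3.99e-10). eat-18, an accessory protein of the pharyngeal nicotinic receptor, stood at 1.66 ± 0.181, and the auxiliary subunit gene molo-1 at 1.46 ± 0.418, though molo-1 was above background in only 10 of 18 IPs and 8 of 18 inputs. lev-9, whose secreted product clusters the receptor together with LEV-10, stood at 1.43 ± 0.310. The gene called lower was nra-2, which acts in the endoplasmic reticulum on subunit composition, at -1.13 ± 0.127 (limma adjusted p = 3.18e-07). ric-3, the chaperone of nicotinic receptors, was at 0.27 ± 0.117 (limma adjusted p = 0.0686).

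Of 12 genes listed for placing ACR-16 and building the junction, 4 were tested, with a median of 0.47. Of the 4, 2 were called higher and 1 lower (19.2% and 25.1% of all genes and probes). The Wnt ligand gene cwn-2, part of the pathway that moves ACR-16 to the synapse, stood at 1.23 ± 0.137 (limma adjusted p = 2.95e-07), and rsu-1, which limits receptors to the synapse, at 0.84 ± 0.127. The basement membrane gene nid-1 was at -1.16 ± 0.263. Among 9 tested genes of acetylcholine release and breakdown, 4 were called higher and 2 lower, with a median of 0.22. The acetylcholinesterase genes ace-3 and ace-4 stood at 1.29 ± 0.267 and 0.95 ± 0.348. ace-4 was above background in only 7 of 18 IPs and 7 of 18 inputs, and its call was lost under 7 of 22 alternatives, with 0.15 under the offset of 0.1. unc-3, the transcription factor of cholinergic motor neurons, stood at 0.76 ± 0.103, and unc-18, a regulator of vesicle fusion, at 0.44 ± 0.113. The synaptobrevin gene snb-1 was at -0.96 ± 0.113 and the complexin gene cpx-1 at -0.68 ± 0.218. The call of cpx-1 was lost under 4 of 28 alternatives, those of snb-1 and unc-18 under 2 and that of unc-3 under 1. The values nearest 0 were -0.28 for cpx-1, -0.16 for snb-1, 0.12 for unc-18 and 0.42 for unc-3. Of 5 tested genes of GABA transmission, 1 was called higher, the excitatory GABA receptor gene exp-1 at 2.02 ± 0.403, and 0 lower (median 0.39). exp-1 was above background in 13 of 18 IPs and 11 of 18 inputs, and its difference was 0.82 with the offset of 0.1.

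The genes linked to miR-1 in C. elegans gave 5 tested genes, unc-29 among them, with a median of 1.10. Of the 5, 3 were called higher and 1 lower (19.2% and 25.1% of all genes and probes). mef-2 stood at 1.67 ± 0.111 (limma adjusted p = 1.61e-10, above 0 in 18 of 18 lysates), with a median level of 2.66 in the IPs and 0.89 in the inputs. Of the genes for the vacuolar proton pump, vha-5 stood at 1.28 ± 0.140 and vha-13 at -0.85 ± 0.0881, lower in the IP in 17 of 18 lysates. The 2 subunits with the larger differences, lev-1 and unc-38, are not on that list.

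Genes of the body wall muscle, the tissue of these receptors, went in both directions. Of the 26 tested, 10 were called higher in the IP and 13 lower (19.2% and 25.1% of all genes and probes), with a median of -0.33. The attachment gene pat-6 stood at 2.13 ± 0.295, the myosin heavy chain gene myo-3 at 1.94 ± 0.154, the potassium channel gene sup-9 at 1.90 ± 0.274 and the transcription factor gene unc-120 at 1.21 ± 0.124. At the other end, the troponin C gene pat-10 was at -2.06 ± 0.0985, unc-95 at -2.06 ± 0.301, the calponin-related gene clik-1 at -1.64 ± 0.213 and the troponin T gene mup-2 at -1.46 ± 0.119. The mean level of the 26 genes, averaged by stage, lay between -0.26 and 0.62 in the IPs and between -0.03 and 0.73 in the inputs. Several of these subunits are also used in neurons, and of 11 tested neuronal genes 5 were called higher and 0 lower, with a median of 0.16. The neuronal genes named by the rule were egl-46 at 5.43 ± 0.128, the glutamate receptor gene glr-1 at 2.56 ± 0.330, the neuropeptide-processing gene egl-21 at 1.53 ± 0.102 and the innexin gene unc-9 at 0.74.

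**Figure D4:**
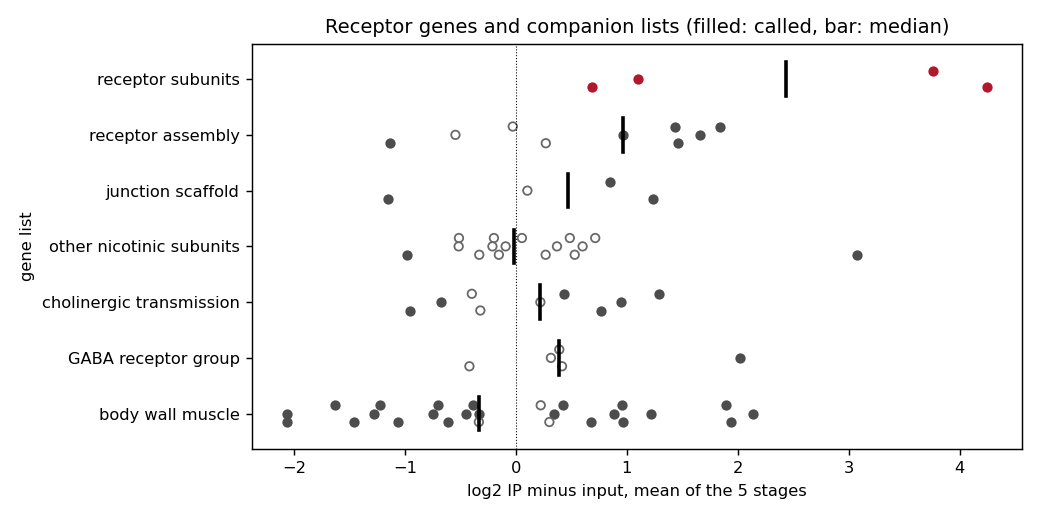
Mean log2 IP minus input of every tested gene of each list (x axis, log2; 1 row per list, 1 point per gene, with the list median). The receptor members reach 4.25 while the other nicotinic subunits centre on -0.02 with acr-8 apart at 3.07, and the body wall muscle genes spread between -2.06 and 2.13.

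The genes whose levels ran most like each member over all samples were found among 6618 named genes with a value in every sample, by Pearson correlation over the 36 levels (35 for unc-29). These values hold both IPs and inputs of the same lysates, so genes that share a large IP to input difference correlate for that reason, and the numbers are a description. For lev-1 they were sup-18 (r = 0.983), which regulates the muscle potassium channel SUP-9, unc-38 (r = 0.953) and the unconventional myosin gene hum-7 (r = 0.953). For unc-38 they were hum-7 (r = 0.963), sup-18 (r = 0.961) and M117.1 (r = 0.955). The closest for unc-29 were figl-1 (r = 0.866), B0286.1 (r = 0.861) and nadk-1 (r = 0.850). For lev-8 they were R193.2 (r = 0.872), nfya-1 (r = 0.834) and ZK682.7 (r = 0.826).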

How the data were processed

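The values of the 36 samples are array intensities, 1 dye channel per sample of a spotted 2-colour array. The deposited intensity is linear and background-subtracted, since values below 0 occur, and each column averages close to 1 (0.975 to 1.13), so the authors appear to have scaled the columns. Scanner, image software and scaling are not given in the sources used here. Per the labels' protocols, input RNA was taken from the lysate before beads were added, RNA was amplified once, and replicates were cultured independently. Cy3 labelled the IP of 12 lysates and Cy5 that of 6.

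Values of 0 or less were treated as missing, and log2 of the others was quantile normalized over the 36 columns. Of 23232 spots 17461 carried a symbol and 5771 did not. Symbols came from the platform annotation, and 90 had no RefSeq match. Probes of a symbol were averaged. A gene was tested with both values in at least 2 lysates of every stage. The 18 IP minus input differences were fitted in limma (version 3.58.1, R 4.3.3) with terms for stage and IP dye, and eBayes used a trend on mean level (12 residual and 7.46 prior degrees of freedom). The same contrasts were fitted to the 18 inputs and the 18 IPs (5.61 and 6.49 prior). Calls have a Benjamini-Hochberg adjusted p under 0.05 over all 15732 genes and probes, and ± is the standard error unless SD is written. The IP and input of a lysate are paired by the protocol: their deviations from the stage means correlated with r between 0.246 and 0.605 across genes, over 0.1 in 18 of 18 lysates. The IP and input of each lysate carried different dyes, and the part of a shared array in this correlation was not tested. Precision is limited by the number of arrays.

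The 7 members and the companion lists were chosen with earlier results of these data known, so no list is tested as a list. Lists are described by counts and medians. Genes named are all members, from each companion list up to 4 called genes with the highest and up to 4 with the lowest mean difference, and for each member the 3 genes of the most similar levels. ric-3 falls outside this rule and was named after its value was seen. The fitting code was tested on simulated data. Alternatives were other scalings (values as deposited, median centring, loess), an offset, the brightest probe, genes with 36 values, only spots above background, no dye term, a term for 2 spellings of the input titles, other blocks, and each lysate left out. Python 3.11.15 with matplotlib 3.10.9 drew the figures. No build is named for the probes, so no coordinates are given.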

Additional observations from a re-analysis of the deposited data

Results flagged for a closer look

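For the 4 tested members, the IP, input and IP minus input values of a stage with 4 lysates made 34 groups. Of these, 6 held a sample far from the other 3 by Dixon's criterion at the 95% level. Chance gives such a sample in about 1 in 20 groups, and groups of 3 were not examined. The groups are not independent, since IP minus input is made from the IP and input values that are also counted. At L3, replicate 1 held lev-8 at -5.96 in the IP and at -2.90 in IP minus input, where the other 3 lysates lay between 0.90 and 1.09. Its spot was not above background. At L3, the input of replicate 3 held unc-29 at -6.95, also not above background. The unc-29 IP of that lysate, at -5.40, was not above background either, and its difference of 1.55 was the largest of unc-29 at L3. At L1, replicate 2 had the largest differences of both unc-29 (2.96) and lev-1 (5.37), where the other 3 lysates lay between 1.78 and 1.94 for unc-29 and between 4.19 and 4.23 for lev-1. In eggs, the IP of replicate 4 held lev-1 at -0.15, where the other 3 lay between 1.36 and 1.60.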

How the results depend on the processing

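The calls of lev-1, unc-38 and unc-29 at the mean of the stages held under every alternative run. lev-1 stayed between 3.53 and 4.47, unc-38 between 3.27 and 3.93 and unc-29 between 0.57 and 1.32. With no replicate block, that is with IPs and inputs of a lysate taken as unpaired, lev-8 kept its 0.69 but lost the call (limma adjusted p = 0.0972), and the members' other calls held. Its call at the mean was also lost with median centring, with only spots above background and with the term for title spelling, and on leaving out any single lysate other than Egg replicate 4, L1 replicate 11, L2 replicate 3, L3 replicate 1 or L4 replicate 10. lev-8 became a call at L1 (1.00) with only spots above background and at L4 (1.34) with the values as deposited, and at both without L3 replicate 1. unc-29 became a call at L3 (1.46) as deposited. The median of all genes moved to 0.14 with the values as deposited, against -0.09. The series called 1539 genes and probes higher with only spots above background, against 3014.

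Between stages, counts of called members moved. For the inputs, the F test called 1 in place of 0 with the offset of 0.1 and with the term for title spelling (0 to 1 leaving out single lysates, 1 without L3 replicate 3). Larvae against eggs called 0 in place of 1 with no dye term and with the replicate number as a replicate block, and 0 to 1 leaving out single lysates. Across stages replicate numbers share only a number. For the IPs, the F test called 1 in place of 0 with genes of 36 values only, with no dye term and with the term for title spelling, and 0 to 2 leaving out single lysates (2 without L3 replicate 5, 1 without Egg replicate 4 or L4 replicate 10). The neighbour steps with the offset were 0.25 (lev-1 minus unc-38) and 0.050 (unc-29 minus lev-8), no longer past 0.05. The cause of these changes was not tested.

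Signs that turned belonged to differences not called in either setting. For lev-1, larvae minus eggs of the ratio was 0.12 as deposited and 0.013 with the offset. For lev-8 the egg difference was -0.031 as deposited, -0.076 centred and -0.0021 with only spots above background, that of L2 was -0.29 with only spots above background, that of L3 lay between -0.27 and 1.00 leaving out single lysates, and larvae minus eggs of the ratio lay between -0.15 and 0.56. For unc-29, the L2 difference was -0.17 with only spots above background, and larvae minus eggs of the IP lay between -0.034 and 0.27 leaving out single lysates. For unc-38, larvae minus eggs of the input was 0.0019 with the offset, 0.071 with the replicate number as a replicate block, and between -0.21 and 0.35 leaving out single lysates.

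Among the companion lists at the mean, calls higher lay between 0 and 3 for GABA transmission (0 without L4 replicate 1 or 10, when 3 of its genes could be tested), 1 and 4 for the other nicotinic subunits, 1 and 4 for acetylcholine release and breakdown (2 without L3 replicate 2 or 5) and 3 and 5 for neuronal genes, and neuronal calls lower between 0 and 2. No companion gene named from the lists by the rule changed direction. Alternatives were not run for ric-3 or, members aside, for the genes of most similar levels. The call of unc-9 was lost under 2 of 28 alternatives and that of molo-1 under 1 of 24. The loess alternative was run for the IP to input ratio only. The unc-63 probe was above background in 4 of 36 samples, that of unc-29 in 31 and that of lev-8 in 35.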

Other observations

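Other nicotinic subunit genes differed between L1 and egg inputs. Of the 16 tested, 6 were called higher at L1 by limma and 0 lower, where 11.1% of all genes and probes were called higher, and their median was 1.05. The 6, which were named after their values were seen, were acr-2 (4.20 ± 1.38), acr-20 (2.43 ± 0.814), acr-18 (2.28 ± 0.644), deg-3 (1.91 ± 0.467), acr-24 (1.83 ± 0.588) and acr-12 (1.74 ± 0.425), with limma adjusted p between 0.00629 and 0.0401. acr-12 lay between -2.43 and -1.94 in the 4 L1 inputs, against -4.18 to -3.47 in the 4 egg inputs. L1 and egg inputs did not overlap for acr-2, acr-12, acr-18 and acr-20, and overlapped for deg-3 and acr-24. The share of all genes and probes without overlap in this comparison was not computed. acr-2, acr-20 and acr-24 were above background in 1 of the 4 egg inputs each, so their size rests on dim spots. The acr-2 values were also widely scattered over the 4 L1 inputs, from -4.41 to 3.49. For acr-20, 3 of the 4 L1 inputs had a value. Of the muscle receptor members none was called in that comparison: 0 of 4 passed by limma, and 1, lev-1, had an unadjusted p under 0.05. Alternatives were not run for these 6 genes.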
